A study of Drosophila melanogaster with 3 samples.

Results

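The distal intergenic summits of pad-GFP are the binding sites that lie in the gaps between genes and away from every promoter. They were taken from the peak list that passed the authors' analysis of the irreproducible discovery rate (IDR), a comparison of peak ranks between replicates. A summit, the position of highest enrichment within a peak, was a member when it lay outside the span of every annotated gene and more than 1000 bp from every annotated start site. This held for 354 summits out of 6659 on the IDR list (5.32%, with an exact binomial 95% interval of 4.79 to 5.88%). The 354 summits came from 330 distinct peak intervals and 313 merged regions, because a wide peak can carry several summits. The interval covers the counting of peaks only.

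The assay was chromatin immunoprecipitation followed by sequencing (ChIP-seq) on whole adult *Drosophila melanogaster*. All 3 libraries were biological replicates of 1 group: females of unknown age from the strain pad-GFP, a transgenic line in which GFP is fused to the C terminus of pad. Sonicated chromatin (size range 200 to 800 per the labels) was precipitated through the GFP tag by an anti-GFP antibody, and each replicate was called against a control alignment. The labels give no second genotype, treatment or time, so comparisons were made between classes of summits within these libraries, and read depth is unknown. Whole flies mix all cell types, so stronger binding in a few cells and weaker binding in many cannot be told apart.

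The protein pad (poils au dos) carries zinc fingers and is known for holding down achaete and scute, the genes that start sensory bristle formation. Sequence far from start sites holds enhancers and silencers, among them the Polycomb response elements through which Polycomb group proteins keep developmental genes silent, as well as insulators. In flies, chromosome ends are maintained by HeT-A and related retrotransposons in place of telomerase repeats.

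An 8-base word, AGGGGAAA, was several times as frequent at these summits as in the sequence beside them. The window of 50 bases to either side of 6 strong summits that hold it is shown first, followed by 2 strong summits that do not, on the plus strand of dm6 from the RefSeq assembly, with each copy of the word or of its reverse complement in capitals.
end of chromosome 4, outer HeT-A copy, chr4:1318980-1319080: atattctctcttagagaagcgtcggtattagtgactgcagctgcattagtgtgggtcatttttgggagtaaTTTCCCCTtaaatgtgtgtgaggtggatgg
end of chromosome 4, inner HeT-A copy, chr4:1306507-1306607: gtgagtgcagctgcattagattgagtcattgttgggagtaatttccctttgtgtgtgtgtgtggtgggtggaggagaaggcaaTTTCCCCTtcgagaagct
between CG11629 and CG1421, chr2L:21899310-21899410: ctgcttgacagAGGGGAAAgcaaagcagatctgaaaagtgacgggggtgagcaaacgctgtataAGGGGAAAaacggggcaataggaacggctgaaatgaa
between Rev1 and CG17129, chr3L:673498-673598: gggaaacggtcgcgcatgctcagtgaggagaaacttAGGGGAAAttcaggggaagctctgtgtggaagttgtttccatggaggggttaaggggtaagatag
between CG6836 and CG14075, chr3L:18957202-18957302: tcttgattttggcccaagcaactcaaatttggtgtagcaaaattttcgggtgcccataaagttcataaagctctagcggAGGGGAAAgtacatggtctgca
between Hr38 and CG9316, chr2L:20720249-20720349: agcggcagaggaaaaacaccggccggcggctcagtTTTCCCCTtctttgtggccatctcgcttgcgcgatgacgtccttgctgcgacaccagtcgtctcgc
between CG13970 and CG10651, chr2L:20121049-20121149: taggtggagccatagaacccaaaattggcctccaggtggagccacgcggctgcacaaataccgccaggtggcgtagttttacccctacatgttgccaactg
between trh and CG13891, chr3L:432708-432808: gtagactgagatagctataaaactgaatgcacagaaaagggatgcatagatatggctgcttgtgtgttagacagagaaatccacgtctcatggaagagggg
The window between CG11629 and CG1421 holds 2 copies, and both HeT-A windows hold the word in reverse complement. The last pair of windows shows that strong peaks also occurred without it.

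AGGGGAAA lay within 50 bases of 34 of the 354 distal intergenic summits (9.60%, exact 95% interval 6.74 to 13.2%), against 8 of the 708 equally wide windows centred 300 bp to either side (1.13%, interval 0.489 to 2.21%). Of all tiles of distal intergenic sequence of the same length 0.588% held it. In the 5000 strongest peaks of each replicate, the share at distal intergenic summits exceeded that of the flanks by 8.57, 10.9 and 10.1 percentage points, a mean of 9.87 ± 1.20 (SD, n = 3). An exact two-sided sign-flip permutation test over 3 replicates gave p = 0.25, the smallest that 3 replicates allow, here and in every such test below where all 3 agree in sign. The difference was positive in 3 of 3 replicates and several times their spread. The replicate lists share many sites, though: 58.7% of all IDR peaks were among the first 5000 of every replicate. Here and below, the spread between replicates therefore does not measure how far a share would vary over other sites. The word was also chosen with earlier results of these data known. The centre of the word lay a median of 23.0 bp from the summit.

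The word was more frequent in the stronger peaks. It was found at 13 of the 40 distal intergenic summits among the first 500 IDR peaks by signal (32.5%, exact 95% interval 18.6 to 49.1%), 7 of 60 among the next 1500 (11.7%), 7 of 98 among the 2000 after those (7.14%) and 7 of 156 among the rest (4.49%, interval 1.82 to 9.03%). Ranked by each replicate's own signal, it marked 40.5%, 30.6% and 40.9% of the distal intergenic summits in ranks 1 to 500, against 5.35%, 8.42% and 5.50% of those that follow up to rank 5000. The gap between the strong and the weaker summits was 30.9 ± 7.60 percentage points (SD, n = 3). The 34 peaks that held the word had a median signal of 1683, against 452 for the 320 that lacked it, on the authors' scale.

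The word was also found at other pad-GFP summits, but at a lower share. It lay at 52 of 1268 distal intronic summits (4.10%, exact 95% interval 3.08 to 5.34%), which are inside a gene, outside every exon and more than 1000 bp from every start site. In the 5000 strongest peaks of each replicate the share was 10%, 11.8% and 11.5% at distal intergenic summits, against 4.45%, 4.65% and 5.14% at distal intronic ones. The difference of 6.32 ± 0.781 percentage points (SD, n = 3) was larger than its spread, with the intergenic share higher in 3 of 3 replicates (p = 0.25, exact sign-flip permutation test, two-sided). Among all 6659 IDR summits 2.94% held the word.

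**Figure D1:**
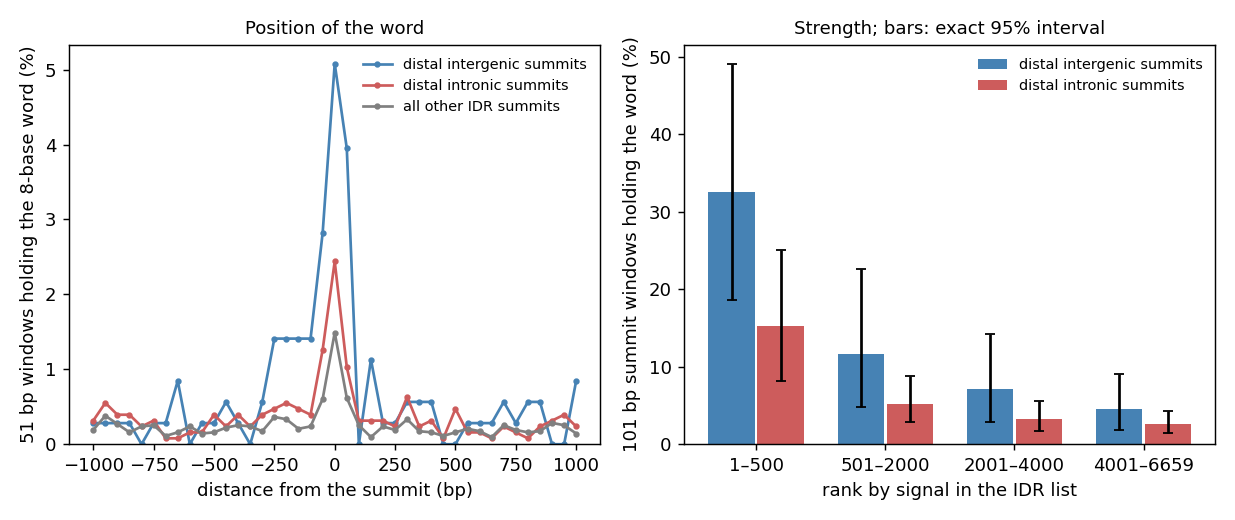
Left, share of 51 bp windows that hold the 8-base word (y axis, percent) by distance from the summit (x axis, bp) for the 354 distal intergenic, 1268 distal intronic and all other IDR summits. Right, share of summit windows (50 bp to either side) that hold it (y axis, percent) by IDR rank, with exact 95% intervals: at ranks 1 to 500 the bars stand at 32.5% for distal intergenic and 15.2% for distal intronic summits.

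Of 26 consensus motifs counted on both strands, 2 were more frequent at distal intergenic summits than at their flanks, in the sense that the exact 95% intervals did not overlap. The other one besides AGGGGAAA was the GAGA factor site, GAGAG, whose factor is known to keep chromatin open at promoters and Polycomb response elements. It was present at 85 of 354 summits (24.0%, interval 19.7 to 28.8%), against 110 of 708 flanks (15.5%, interval 12.9 to 18.4%) and 11.1% of tiles of distal intergenic sequence. Its excess in the replicates was 11.1 ± 0.373 percentage points (SD, n = 3), and at distal intronic summits it stood at 24.8%, against 17.7% of their flanks. For comparison, 46.2% of the 26 motifs passed the same rule at all 6659 IDR summits, where the larger number of windows narrows the intervals. This includes motifs of promoters such as DRE, TATCGATA, which was present at 0.282% of distal intergenic summits and 2.21% of all IDR summits.

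The homeobox core, TAATTA, went the other way. It was present at 8 of 354 summits (2.26%, interval 0.981 to 4.40%), against 46 of 708 flanks (6.5%, interval 4.80 to 8.57%), a difference of -4.93 ± 0.314 percentage points in the replicates (SD, n = 3). With 1 summit per merged region, or without replicate 2, the intervals overlapped. The summit windows were also richer in G and C, with a median of 44.6% against 39.6% in the flanks, and by 4.87 ± 0.937 percentage points in the replicates (SD, n = 3); the part of base composition in these motif shares was not tested. The core GCCAT of Pho, a DNA-binding member of the Polycomb group, was present at 22.0% of summits and 19.6% of flanks, with overlapping intervals. The insulator motifs of CTCF (AGGTGGCGC) and Su(Hw) (TGCATACTT) were rare. CTCF's was present at 0.847% of summits, against 0.424% of flanks and 0.436% of all IDR summits. That of Su(Hw) was present at 1.69% of summits, against 0.282% of flanks and 0.375% of all IDR summits, and its excess over flanks was 1.10 ± 0.155 percentage points in the replicates (SD, n = 3), with overlapping intervals at the IDR summits.

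A further word, CCTATTGG, was noticed in the printed windows and counted after the values were seen. It was present at 3 of the 354 summits, all of them on X and all among the 500 strongest IDR peaks. These 3 lay in gaps between convergent genes, at inc and Mur2B, at Mnt and Rala, and at CG32812 and DAAM, and are shown with the word or its reverse complement in capitals.
between inc and Mur2B, chrX:1517730-1517830: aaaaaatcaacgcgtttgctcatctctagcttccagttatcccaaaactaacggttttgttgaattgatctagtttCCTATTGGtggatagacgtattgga
between Mnt and Rala, chrX:3704306-3704406: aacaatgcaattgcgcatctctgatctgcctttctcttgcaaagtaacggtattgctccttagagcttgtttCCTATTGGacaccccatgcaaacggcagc
between CG32812 and DAAM, chrX:1289185-1289285: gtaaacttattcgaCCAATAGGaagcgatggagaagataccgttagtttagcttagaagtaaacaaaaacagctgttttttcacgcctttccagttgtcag
Replicate 1 placed all 3 sites lower than the other replicates did. The site between inc and Mur2B ranked 165, 74 and 93 in replicates 1, 2 and 3. The site between Mnt, the antagonist of Myc, and the GTPase gene Rala ranked 748, 227 and 331, and the site between CG32812 and DAAM ranked 1216, 237 and 478. At flanks the word was present in 1 of 708 windows, and at all IDR summits in 0.105%.

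A search over all 8-mers gave the same leading word. Among the 120 distal intergenic summits on 2L and 2R, AGGGGAAA had the largest excess over flanks of all 8-mers, with 15 of 120 summit windows (12.5%) and 4 of 240 flank windows (1.67%). On 3L, 3R and X, which this ranking did not use, AGGGGAAA was present in 16 of 225 summit windows (7.11%) and 4 of 450 flank windows (0.889%). The word was already among the 26 motifs, which were chosen with earlier results of these data known. The split by arm is therefore no independent check of it. The words at ranks 2 to 4, ATTTCCCC, GGGGAAAA and AAGGGGAA, overlap AGGGGAAA or its reverse complement. Of the 20 leading words, 11 were more frequent at summits than at flanks on 3L, 3R and X (55%), against 46.4% of the 56 words found in at least 5 summit windows on 2L and 2R, a share near the background. When the words were found on 3L, 3R and X instead, AGGGGAAA again came first, and 2 words stood in both lists of 20. A search that ranks words by the same windows is a description, and no p-value was computed.

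Distal intergenic summits made up a larger part of the very strongest peaks than of those that followed. They were 16 of the first 100 IDR peaks by signal (16%, exact 95% interval 9.43 to 24.7%), 24 of the next 400 (6.0%), 19 of the 500 after those (3.80%) and 156 of the last 2659 (5.87%). The 16 were not all separate sites, as the interval takes them to be. Those at ranks 4 and 47 shared 1 merged region, as did those at ranks 41 and 72. Ranks 1, 2 and 9 lay at arm ends. In the replicates' own lists they made up 15%, 14% and 17% of ranks 1 to 100, and 5.60%, 4.76% and 5.24% of ranks 1 to 5000. The share in ranks 1 to 100 was higher by 10.1 ± 1.41 percentage points (SD, n = 3; p = 0.25, exact sign-flip permutation test). In the rest of the 30000 peaks it was 9.76%, 7.06% and 8.95%, so that ranks 1 to 5000 stood lower by 3.39 points on average (SD 0.966, n = 3). All of these shares were under the 25.1% of arm bases that meet the same distance rule, and the peaks of the pooled list that did not pass IDR had 8.33%.

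**Figure D2:**
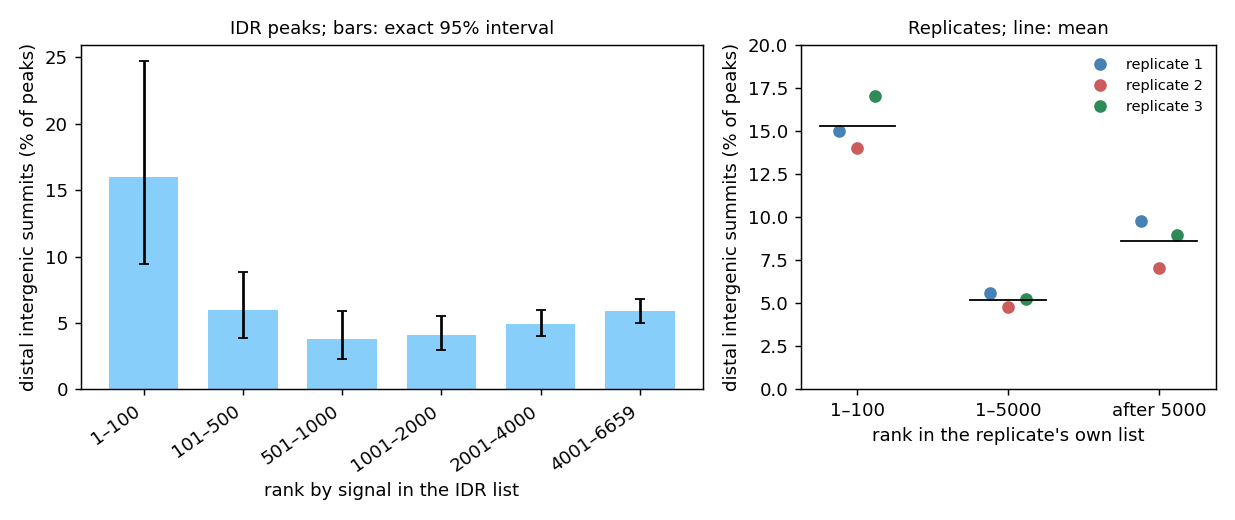
Left, share of IDR peaks with a distal intergenic summit (y axis, percent) by rank in the IDR list, with exact 95% intervals. Right, the same share in each replicate's own list for 3 bands of rank, 1 point per replicate with a line at the mean: ranks 1–100 lie between 14% and 17%, and ranks 1–5000 between 4.76% and 5.60%.

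The strongest members were chosen by a signal pooled from these same replicates, so high ranks in each were built in. The first few kept close places. Others further down moved more, such as the second peak near the 2R end (ranks 60, 214 and 81). At the end of arm 2R the peak nearest the telomere ranked 1, 2 and 1 in replicates 1, 2 and 3, and at the end of chromosome 4 the outer HeT-A copy ranked 2, 4 and 2 and the inner copy 6, 11 and 8. Of the 15-mers of the outer HeT-A peak 36.3% were also in the inner one, and of those of the 2R peak 16.9% were in the outer one. None of the 36-mers in the windows at these 3 summits occurred elsewhere in the assembly. Such repeats were rare among the members: 5 of 354 windows held any 36-mer with another copy (1.41%). They included the second peak near the 2R end (40.9% of its 36-mers) and the HeT-A peaks of IDR ranks 2927 and 5898 on chromosome 4 (80.3% and 22.7%). The others were at weaker summits between CG13970 and CG10651 (33.3%) and between OtopLa and OtopLc (10.6%). Copies missing from the assembly could not be counted.

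Away from the arm ends, the strongest members lay in gaps between genes of varied function. The gap between CG13970 and CG10651 held the peak that ranked 4, 6 and 5, and that between CG11629 and CG1421 the one that ranked 7, 10 and 9. Upstream of 18w, which encodes a Toll family receptor, a summit 4883 bp from the start site ranked 15, 16 and 13. Between trh, a regulator of tracheal development, and CG13891 a summit 1148 bp from the start of CG13891 ranked 18, 32 and 20. The site between CG13321 and Psc, which encodes a Polycomb group protein, ranked 22, 28 and 22. It lay 2406 bp from the start of CG13321, the nearest coding start, and 10038 bp from the near end of Psc. Between Sgt1 and tex, the only gap of these that is under 3 kb (2198 bp), the peak ranked 48, 36 and 32.

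Wide peaks with several summits stood in 2 gaps on 2L. The gap between COX7AL2 and CG31668 held 6 member summits in 1 merged region, under a peak of 5475 bp that was the widest of all IDR peaks and ranked 35, 42 and 43. The neighbouring gaps on either side of Rh5, a rhodopsin gene, held 5 members toward Hacd1, which encodes an enzyme of fatty acid elongation, and 3 toward Wdr81. The peak nearest to Hacd1 there ranked 68, 55 and 51. The median width of all members was 490 bp, the same as that of all IDR peaks.

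Of the 25 strongest regions, 3 had a gene of the developmental lists described below as nearest coding gene (12%, exact 95% interval 2.55 to 31.2%), against 13% of all members. Such a gene lay on either side of the gap at 6 of the 25 (24%, interval 9.36 to 45.1%), against 18.4% of all members, so neither share differed from that of all members beyond its interval. A summit 1413 bp from en, the segment polarity homeobox gene engrailed, ranked 52, 137 and 78. Upstream of Myc, the growth regulator, a summit 3515 bp away ranked 262, 126 and 180. Between the homeobox genes E5 and ems, a summit 2422 bp from E5 ranked 120, 220 and 212, and E5 is not on the developmental lists. Between CG42758 and the homeobox gene HGTX, the ranks were 132, 354 and 242. The remaining regions of the 25 lay between CG5953 and CG31816, Or67d and CG12362, CG6836 and CG14075, CG32643 and rsh, and OtopLa and OtopLc, and a second one lay near the 2R end.

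**Figure D3:**
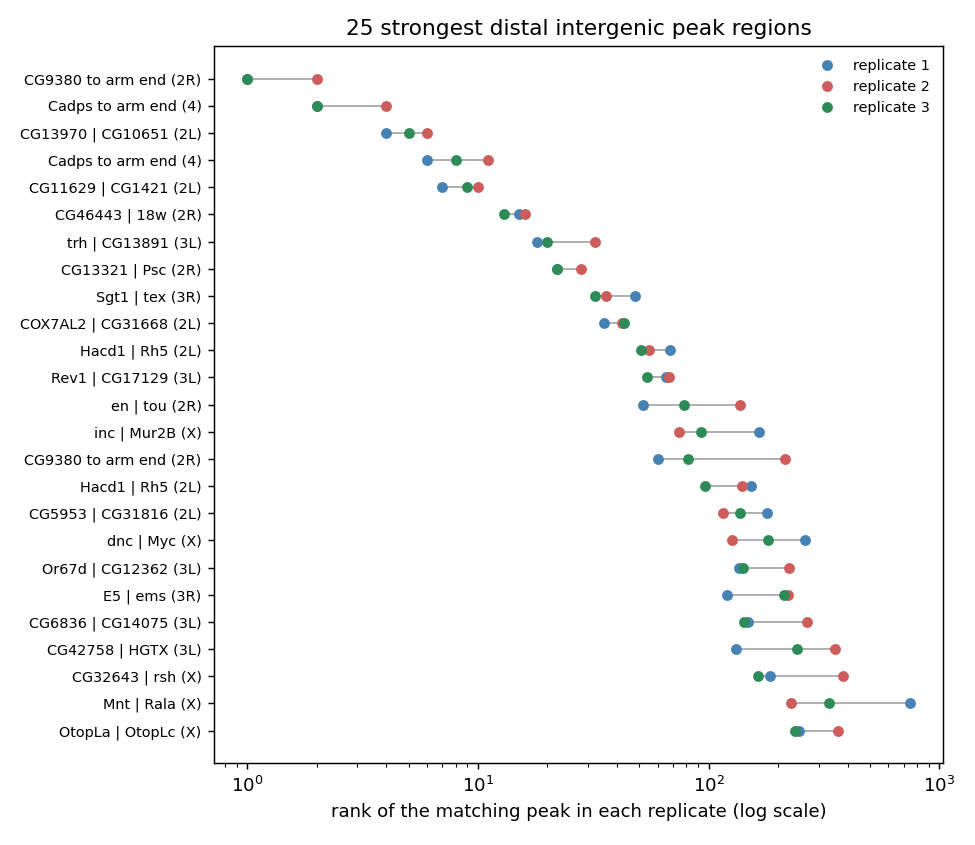
Rank of the matching peak in each replicate (x axis, log scale) for the 25 distal intergenic regions with the highest signal (y axis, named by the coding genes on either side, arm in parentheses). Lines join the lowest and highest rank; the site between Mnt and Rala has the largest difference in places, 227 to 748, though not the longest line on the log scale.

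The members were found again in the replicates as often as other IDR peaks. IDR peaks are the strongest of a list pooled from these same replicates, so a high share is partly built in for both. Of the 354, 320 lay among the 10000 strongest peaks of every replicate (90.4%, exact 95% interval 86.8 to 93.3%), against 90.8% of all 6659 IDR peaks, so the share was that of the background. It was 54.5% when only the first 5000 of each replicate were searched, against 58.7% of all IDR peaks. The median rank of the members was 2981, 3482 and 3022 in replicates 1, 2 and 3, against 2860, 2919 and 3021 for all other IDR peaks. They ranked 228 places lower on average, with an SD of 296 between the replicates, which is larger than the difference (p = 0.25, exact sign-flip permutation test). Most of that difference came from replicate 2: without it the mean difference was 61.2 places. A weak summit under a wide peak takes the rank of the strongest matching replicate peak. For example, the member between COX7AL2 and CG31668 at IDR rank 2415 was given ranks 35, 42 and 43.

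Within the gaps, members lay close to genes rather than in the deepest intergenic sequence. A start site was within 5 kb of 261 of the 354 (73.7%, exact 95% interval 68.8 to 78.2%), against 40.2% of the bases that meet the distance rule. The replicates gave 73.6%, 75.2% and 71.8%, which exceeds the base share by 33.3 ± 1.73 percentage points (SD, n = 3). Per Mb of such sequence there were 26.3 members at up to 2 kb, 15.7 at 2 to 5 kb, 7.25 at 5 to 10 kb, 5.81 at 10 to 20 kb and 1.51 beyond. The base share includes pericentric sequence, where the last Mb of 2L and 3L and the first Mb of 2R and 3R held 0 members in 0.723, 0.720, 0.590 and 0.566 Mb. The median distance was 2974 bp, and the farthest member, the outer HeT-A copy, was 87147 bp from a start site.

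The orientation of the flanking genes differed from that of the sequence as a whole. Gaps between divergent genes, whose promoters face each other, held 28.5% of members (exact 95% interval 23.9 to 33.5%) and 19.2% of the distal intergenic bases. In the replicates the share was 28.9%, 33.6% and 29.0%, an excess of 11.3 ± 2.68 percentage points (SD, n = 3). Gaps between genes in tandem held 42.7% of members and 50.2% of bases, and those between convergent genes 27.1% and 26.6%.

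**Figure D4:**
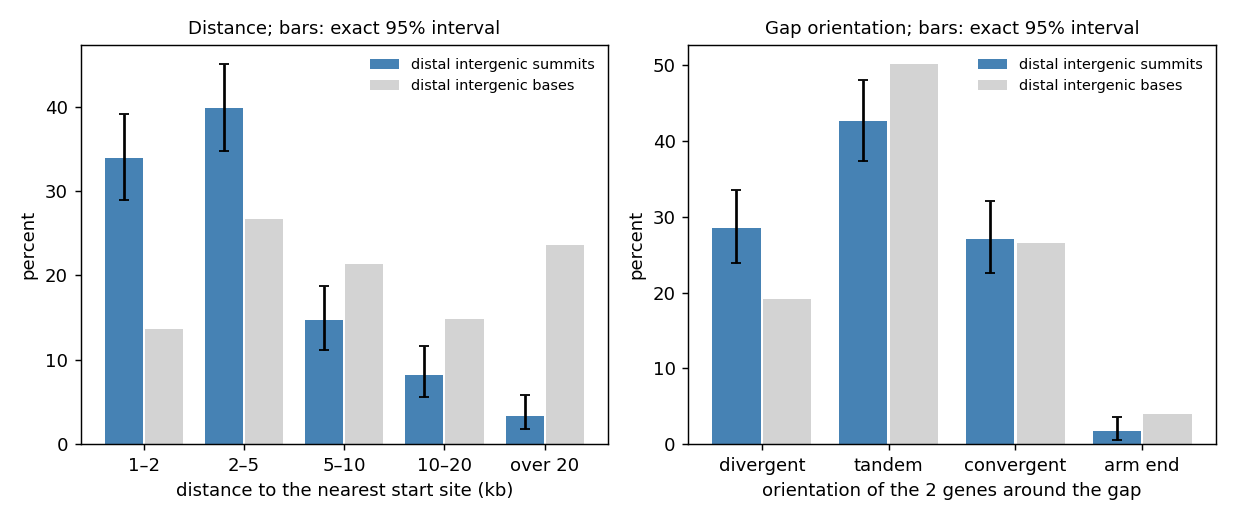
Share of the 354 distal intergenic summits (blue, with exact 95% intervals) and of all distal intergenic bases (grey) by distance to the nearest start site (left) and by orientation of the flanking genes (right), both in percent. Summits exceed bases at 1–2 kb (33.9% against 13.6%) and 2–5 kb (39.8% against 26.7%) and in divergent gaps (28.5% against 19.2%).

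Distal intergenic summits occurred on every arm. The counts were 62 for 2L, 58 for 2R, 85 for 3L, 89 for 3R, 9 for chromosome 4 and 51 for X. Per Mb of distal intergenic sequence these made 10.2 for 2L, 8.36 for 2R, 10 for 3L, 12.7 for 3R, 41.4 for chromosome 4 and 10.4 for X. Chromosome 4 stood highest also in the replicates, with 23.0, 32.2 and 32.2 members per Mb in their 5000 strongest peaks, against 8.17, 6.77 and 7.61 on the 4 large autosome arms. The density on chromosome 4 rests on 9 members in 0.217 Mb (exact Poisson 95% interval 18.9 to 78.6 per Mb), 4 of them within 100 kb of its end. Away from the ends it was 36.7 per Mb (5 members, interval 11.9 to 85.8), and 14.7, 29.4 and 22.0 in the replicates. Members per Mb on X stood at 1.01 times those on the large autosome arms, and at 1.05, 1.15 and 1.02 times in the replicates, but the ratio came to 0.730 at a distance of 2000 bp and 0.874 with 1 summit per merged region, so no direction is given for X.

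Annotated transposable elements held few members. Only 5 of 354 summits lay inside one (1.41%, exact 95% interval 0.460 to 3.27%), against 11.4% of distal intergenic bases, and the replicates had 1.43% ± 0.317 (SD, n = 3). All 5 were on chromosome 4, 4 in HeT-A copies at its end and 1 in an INE-1 copy between Asator and zfh2. How reads that match several copies were placed is not given in the sources used here.

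Members were grouped along the genome, but less than distal intronic summits. Another member lay within 5 kb of 147 of the 354 (41.5%, exact 95% interval 36.3 to 46.9%), against 706 of 1268 distal intronic summits with another of their kind (55.7%, interval 52.9 to 58.4%). In the 5000 strongest peaks of each replicate the shares were 40.4%, 39.5% and 40.8% against 48.4%, 52.2% and 53.0%, a difference of -11.0 ± 2.51 percentage points (SD, n = 3; p = 0.25, exact sign-flip permutation test). With 1 summit per merged region the shares were 27.8% and 41.0%. The lists differ in size, 354 against 1268 summits, and the part of that in the difference was not tested.

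In all, 245 of the 4793 gaps with distal sequence held a member, 183 of them a single one and 25 of them 3 or more. The gap of 75047 bp between NijA and CG43245 held 7, in 5 merged regions. Gaps are named by the coding genes on either side, and a noncoding gene can border the gap instead. The gap between hry, the repressor hairy, and SrpRbeta held 6 and is bordered on the hry side by lncRNA:CR44526. The one between Su(z)2, a Polycomb group gene next to Psc, and CG13323 held 5. That between RYBP, whose product associates with Polycomb complexes, and Ppa held 5 and is bordered on the RYBP side by lncRNA:CR44761. By nearest coding start site, CG43245 had 8 members and Rh5 6, and CG13898, CG6163, Cadps, SrpRbeta, foxo, jeb and scyl had 4 each.

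Listed developmental regulators were the nearest coding genes more often than their share of the sequence. The 5 lists of such genes together, 215 genes, were nearest to 46 members (13%, exact 95% interval 9.67 to 16.9%) and to 5.16% of distal intergenic bases. In the replicates the share was 12.5%, 10.9% and 11.8%, an excess of 6.59 ± 0.791 percentage points (SD, n = 3; p = 0.25, exact sign-flip permutation test). The excess was present in each band of distance: 12.5% of members against 4.95% of bases within 2 kb, 14.9% against 5.37% at 2 to 5 kb and 10.8% against 5.11% beyond. In all, 33 of the 163 listed genes that are nearest to some distal intergenic sequence were nearest to a member. The lists were chosen with earlier results of these data known, so the excess describes these lists and is no independent check.

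The lists differed. Developmental regulators with zinc fingers were nearest to 14 members (3.95%, exact 95% interval 2.18 to 6.55%) and 0.784% of bases. They included fru, which directs male courtship circuits, with 3 members and a best site at ranks 1326, 1710 and 1118, and sr, a tendon cell regulator, chinmo, a temporal factor of neuroblasts, and dati with 2 each. Basic helix-loop-helix (bHLH) and HES genes were nearest to 7 members (1.98%, interval 0.799 to 4.03%) and 0.360% of bases, and here the genes were Myc, Mnt, hry and sim. The list of other developmental regulators, among them foxo, noc, croc and bin, was nearest to 10 members (2.82%, interval 1.36 to 5.13%) and 0.736% of bases.

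E5, named above as the gene nearest to a strong site, is not on the homeobox list. The 74 listed homeobox genes were nearest to 11 members (3.11%, interval 1.56 to 5.49%) and 2.69% of bases, so their share did not differ beyond its interval. Besides en they included pdm2, a POU factor of neuroblasts, with a site 1227 bp from its start at ranks 444, 930 and 450, oc, the head gene orthodenticle, at ranks 746, 719 and 751, and Lim1 at ranks 591, 1595 and 834. T-box and nuclear receptor genes were nearest to 4 members (1.13% against 0.585% of bases), 1 each at Hr38, H15, knrl and mid. The site near Hr38, an activity-induced nuclear receptor gene, holds AGGGGAAA and ranked 329, 647 and 268.

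Among the lists of other functions, chemosensory receptor genes were nearest to 10 members (2.82%, interval 1.36 to 5.13%) and 1.62% of bases, so their share did not differ beyond its interval. They included Or67d, whose strongest site lay 48877 bp from its start, and Gr93d, Gr93a and Ir68a. The 72 listed axon guidance and adhesion genes were nearest to 1 member, that of 18w, against 1.76% of bases. Their replicate shares were 0.357%, 0.420% and 0.382% of 280, 238 and 262 members. At so low a count these values mainly follow the size of each list, so their spread is no measure of precision. Other genes, such as ft and Ptp99A, were nearest to a member but are not on that list. The lists of 30 signalling ligand genes and 19 heat shock genes were nearest to 0 members each, against 0.621% and 0.0888% of bases. A count of 0 allows a share of up to 1.04% (exact 95% upper bound). In replicate 1 the ligand list stood at 0.357%. The counts cover the listed genes only, and jeb, nearest to 4 members, is not on the ligand list. Ribosomal protein genes (RpS15Aa) and cuticle protein genes (Edg84A) had 1 member each.

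Genes with a pad-GFP summit at their own promoter were often the neighbours of a distal one. Of the 354 members, 122 had as nearest coding gene 1 with an IDR summit within 250 bp of a start site (34.5%, exact 95% interval 29.5 to 39.7%), against 10.2% of distal intergenic bases. The replicates gave 34.3%, 36.6% and 32.8%, an excess of 24.4 ± 1.88 percentage points (SD, n = 3; p = 0.25, exact sign-flip permutation test). By distance, the shares were 34.2% against 11.2% within 2 kb, 38.3% against 10.9% at 2 to 5 kb and 29.0% against 9.67% beyond. Among the named neighbours with such a promoter summit were en, pdm2, Lim1, Mnt, hry, foxo, noc, sr, mid, RpS15Aa, CG6163, SrpRbeta, jeb and scyl, and among those without one were 18w, Myc, Hr38, H15, oc, fru and chinmo. The list of genes with a promoter summit came from the same IDR peaks as the members, and the same list was used for every replicate. The replicate values are therefore not independent of it. How often 1 wide peak carried both a promoter summit and a member was not counted. Whether a distal site acts on its nearest gene was not tested.

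**Figure D5:**
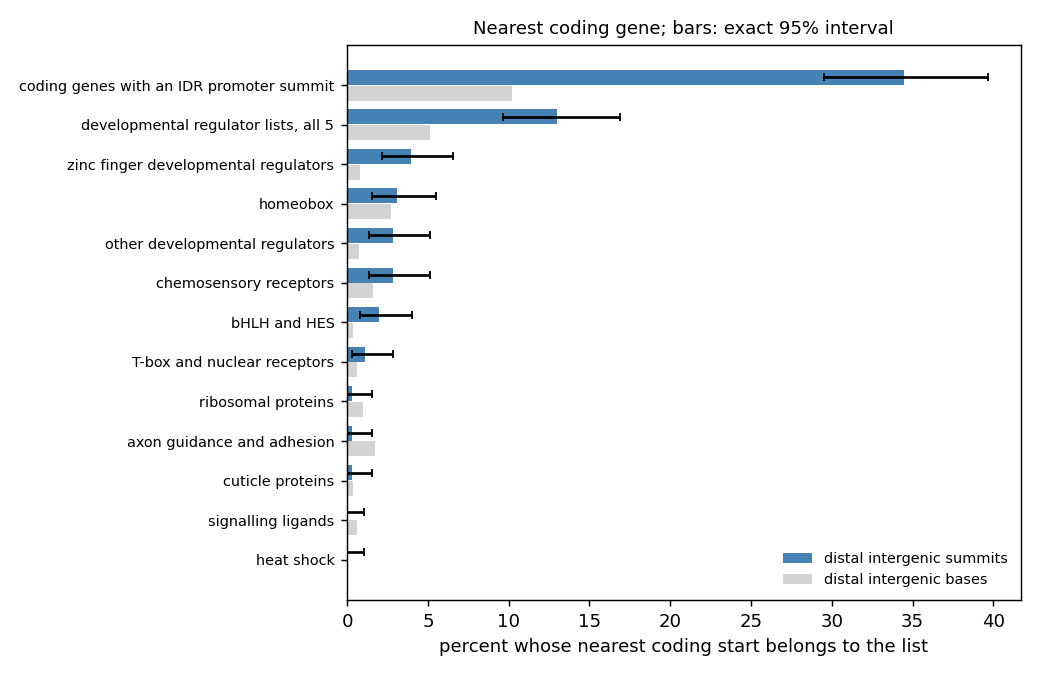
Share of the 354 distal intergenic summits (blue, with exact 95% intervals) and of distal intergenic bases (grey) whose nearest coding start site belongs to each gene list, in percent. The widest gaps are for genes with an IDR summit at their promoter (34.5% against 10.2%) and for the 5 developmental lists together (13% against 5.16%).

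The 1000 bp rule cut through a continuous range of summits. Outside genes, 15 summits lay in the first 100 bp past the limit and 20 in the last 100 bp before it. Just inside were a summit 1010 bp from a start site between tRNA:Leu-CAG-1-4 and Sarm with a signal of 351, and 2 at 1015 bp, between lab and Edg84A (453) and between lncRNA:CR44755 and dve (267). Just outside were summits at 999 bp between CG33080 and Snx27 (971), and at 996 bp between bab2 and CG13912 (4419) and between CG9498 and ppk7 (1226). These values describe the edge of the rule, and no test was made on them.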

How the data were processed

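The deposited files are peak lists. Per the deposited lists of derived files, the authors called 30000 peaks per replicate and on the pooled replicates, with a control alignment, as input for IDR; the 6659 IDR peaks were the strongest 6659 peaks of the pooled list. The sources used here name no aligner or peak caller. Signal is the authors' deposited value of unstated scaling. It was used to rank peaks, and some medians and single values are given on that scale. The deposited −log10 q-value was not used for selection. Depth is unknown. Coordinates are 1-based on dm6 (Release 6), with genes, start sites and elements from Ensembl release 115 (18164 genes and 23581 start sites on 6 arms) and sequence from RefSeq.

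An IDR peak was matched to the strongest replicate peak where at least 50% of either was covered. Intervals are exact binomial (95%) and cover the counting of peaks, which are not replicates; differences were tested over replicates by exact sign-flip permutation, and the spread may be technical. Base shares were counted over every base meeting the rule. The members, lists, motifs and words were chosen with earlier results of these data known; CCTATTGG was chosen after seeing these windows. Symbols were matched by name or synonym, leaving 2 unmatched. Named genes flank the 25 strongest regions, are the up to 4 strongest neighbours per list, the coding genes nearest to most members (ties included), or border the 1000 bp limit; DAAM, CG32812, Asator, zfh2 and genes of the fullest gaps were named after their values were seen. Alternatives were 500 and 2000 bp, coding genes only, merged regions, other overlaps, windows and flanks, and each replicate left out. Procedures were tested on simulated data. Software was Python 3.11.15 with scipy 1.17.1, numpy 2.4.6, matplotlib 3.10.9 and pandas 2.3.3.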

Additional observations from a re-analysis of the deposited data

How the results depend on the processing

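Of 64 alternatives, 50 kept the direction and stayed within the main value's interval or replicate SD (for counts, within 1.5 times), 12 moved the value further and 2 reversed it. The rank difference of 228 places has an SD above its size, so 61.2 places without replicate 2 and 350 with 1 summit per merged region lie within it. The share of distal intergenic summits was 7.55% at 500 bp, 3.51% at 2000 bp, 8.35% with coding genes only and 5.90% of the 1000 strongest peaks, since these rules admit other sequence or other peaks. The X ratio reversed to 0.730 at 2000 bp and 0.874 with 1 summit per merged region, and moved to 1.16 at 500 bp and 1.39 among the 1000 strongest peaks; the cause was not tested. Members in the top peaks of every replicate were 54.5% for the top 5000. Clustering was 33.9% within 2 kb and 27.8% with 1 summit per merged region. Flanks 500 bp away gave 4 motifs above flanks. By either gene of the gap, 18.4% of members had a developmental regulator, against 10% of bases.

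Leaving out each replicate gave 5.21 to 5.37% for the share, 1.05 to 1.07 for the X ratio, 61.2 to 342 places for the rank difference, 92.7 to 94.4% for the top 10000 (over 2 replicates), 43.3 to 43.6% for clustering, 1.5 to 1.52% for elements, 2 to 3 motifs, 10 to 11 words and 12.2 to 12.4% for developmental neighbours. Without peaks within 100 kb of an arm end, an alternative chosen after seeing the data, the share was 5.2%, 2 motifs stood above flanks and chromosome 4 had 36.7 members per Mb. No paired analysis was possible because there is 1 group. Depth is unknown, so no interval covers it, and a site missing from a list may be bound below its limit.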

Other observations

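Some values stand outside the comparisons above. The word GAGCGGGA, picked from the list found on 3L, 3R and X, was present at 11 of the 354 distal intergenic summits (3.11%, exact 95% interval 1.56 to 5.49%), against 5 of 708 flanks (0.706%, interval 0.230 to 1.64%), and at 1.34% of all IDR summits. On 2L and 2R, which were not used to pick it, it was present at 2 of 120 summits (1.67%) and 3 of 240 flanks (1.25%), so the excess rests on the arms it was picked from. Its strongest members lay between E5 and ems, between CG32643 and rsh, and between H15 and mid.

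The members farthest from start sites came from few places. The 12 that lay more than 20 kb away had a median signal of 872 and the 29 at 10 to 20 kb one of 609, against 367 for the 52 at 5 to 10 kb, 467 for the 141 at 2 to 5 kb and 462 for the 120 within 2 kb. Of the 12, 6 lay past the last gene of 2R or of chromosome 4 and 5 in the gap between NijA and CG43245. Their signals ranged from 296 to 97719, and the 6 that were not past the last gene had a median of 757 (453 to 993). On X the 51 members had median ranks of 1959, 2016 and 2128 in replicates 1, 2 and 3. The 62 on 2L had 2092, 2929 and 2819, the 58 on 2R 2328, 3191 and 2570, the 85 on 3L 3072, 3654 and 3335, and the 89 on 3R 3415, 4374 and 4067. In the IDR list itself the median rank was 2826 on X and 2759 on 2L.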
